A study of Mus musculus with 4 samples.

Results

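The distal ends of the mouse autosomes were examined for CpG methylation in Naa10 knockout (KO) and wild-type (WT) embryonic stem cells. A member was a 1 kb window of chromosomes 1 to 19 that lay within 3 Mb of the highest position listed for its chromosome and held at least 3 cytosines with at least 10 calls in all 4 libraries. There were 3743 such windows with 63639 cytosines, of 119319 autosomal windows in all. The choice used position and coverage and no methylation value. Reduced representation bisulfite sequencing, which reads the CpG-rich fragments left by the enzyme MspI, gave 2 KO libraries and 2 WT libraries. The KO cells carried the Naa10 knockout and the WT cells did not, and the labels give neither the kind of allele nor the number of clones. Both genotypes were cultured in N2B27 with LIF, a Gsk3 inhibitor and a Mek inhibitor over irradiated feeder cells, and were then passaged 5 times without feeders ahead of DNA extraction. Nothing states that same-genotype libraries come from separate cultures, so the p-values reflect library-to-library spread alone, which may be technical.

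Mouse autosomes have their centromere at one tip, so the low coordinates of an assembled chromosome lie on the centromere side and the highest coordinates lie next to the distal telomere. Telomeric repeats contain no CpG, and the methylation of a chromosome end is therefore read in the subtelomeric sequence before them. In mammals this sequence is often rich in CpG and methylated by the Dnmt enzymes, and cells without these enzymes lose methylation there. Embryonic stem cells held with inhibitors of Mek and Gsk3 are known for low CpG methylation. Naa10 encodes the catalytic subunit of the NatA complex, which acetylates the N-termini of many proteins.

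Sequences of 6 promoters at the distal ends are shown because they hold the contrast found there, between promoters methylated in WT cells and the many that were not. Each is a RefSeq promoter of build GRCm38.p6, from 250 bases before to 50 bases after the start of the gene, written 5′ to 3′. It was placed on the mm9 coordinates of the libraries by the spacing of its CpG sites and not by converting coordinates. Capitals mark bases whose cytosine had at least 10 calls in all 4 libraries, and a capital G stands for the cytosine of the opposite strand. The Tmem267 promoters lay on the plus strand at chr13:120277030-120277329 and chr13:120276643-120276942, and the Csf2ra promoter on the minus strand at chr19:61304272-61304571. The Mir1a-1hg, Topaz1 and Fgf4 promoters lay on the plus strand at chr2:180120059-180120358, chr9:122656067-122656366 and chr7:152047041-152047340.
Tmem267 promoter nearer the end: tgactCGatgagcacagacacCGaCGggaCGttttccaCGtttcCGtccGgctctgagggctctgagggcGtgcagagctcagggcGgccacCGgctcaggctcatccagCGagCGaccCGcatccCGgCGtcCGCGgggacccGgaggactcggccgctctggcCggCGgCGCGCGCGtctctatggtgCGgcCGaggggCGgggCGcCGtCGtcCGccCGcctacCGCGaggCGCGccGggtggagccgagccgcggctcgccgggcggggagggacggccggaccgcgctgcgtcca
Tmem267 promoter farther from the end: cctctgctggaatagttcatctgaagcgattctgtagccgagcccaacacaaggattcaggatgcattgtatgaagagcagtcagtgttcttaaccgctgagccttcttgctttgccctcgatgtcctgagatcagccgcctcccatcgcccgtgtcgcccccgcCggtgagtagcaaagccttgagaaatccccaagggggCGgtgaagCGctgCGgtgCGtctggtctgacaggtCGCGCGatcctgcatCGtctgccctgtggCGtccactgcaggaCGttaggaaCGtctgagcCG
Csf2ra promoter: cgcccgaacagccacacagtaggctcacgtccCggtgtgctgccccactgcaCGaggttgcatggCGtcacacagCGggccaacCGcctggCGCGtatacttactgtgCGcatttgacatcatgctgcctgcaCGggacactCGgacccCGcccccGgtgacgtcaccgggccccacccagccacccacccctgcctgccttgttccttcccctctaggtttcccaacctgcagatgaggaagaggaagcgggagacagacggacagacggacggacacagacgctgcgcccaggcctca
Mir1a-1hg promoter: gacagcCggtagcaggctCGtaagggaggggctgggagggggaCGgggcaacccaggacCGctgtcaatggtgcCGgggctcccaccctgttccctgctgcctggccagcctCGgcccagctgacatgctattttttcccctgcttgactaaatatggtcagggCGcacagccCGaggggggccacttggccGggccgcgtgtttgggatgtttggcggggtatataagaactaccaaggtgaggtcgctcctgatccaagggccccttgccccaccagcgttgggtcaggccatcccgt
Topaz1 promoter: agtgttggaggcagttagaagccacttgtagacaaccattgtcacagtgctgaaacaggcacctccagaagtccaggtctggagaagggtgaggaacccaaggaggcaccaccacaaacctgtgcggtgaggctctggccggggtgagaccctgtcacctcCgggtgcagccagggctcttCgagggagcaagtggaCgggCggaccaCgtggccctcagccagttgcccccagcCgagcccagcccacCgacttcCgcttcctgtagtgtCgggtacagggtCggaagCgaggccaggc
Fgf4 promoter: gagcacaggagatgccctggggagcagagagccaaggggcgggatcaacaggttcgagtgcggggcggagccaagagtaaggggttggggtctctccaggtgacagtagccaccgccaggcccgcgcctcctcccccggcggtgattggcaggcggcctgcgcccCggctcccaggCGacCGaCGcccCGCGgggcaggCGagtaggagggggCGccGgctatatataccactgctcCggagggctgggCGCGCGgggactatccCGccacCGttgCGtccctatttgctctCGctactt

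All libraries were deeply sequenced, with 68929594 and 70594987 calls in KO replicates 1 and 2, against 79540412 and 68586396 calls in WT replicates 1 and 2. At the distal windows the median depth per cytosine was 28.2 and 28.4 calls in KO replicates 1 and 2, against 32.0 and 27.6 calls in WT replicates 1 and 2. In the rest of the same chromosomes it was 27.4 and 27.7 calls in the KO libraries, against 31.0 and 26.7 calls in the WT libraries. A distal window held a median of 8 cytosines, and a window of the rest held 7. Neighbouring cytosines share reads, so intervals and tests on calls cover less than the full error.

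The distal ends had lost most of their methylation in the KO libraries. The mean level over the 3743 distal windows was 18.5% and 12.3% in KO replicates 1 and 2, against 56.1% in each WT library. The KO mean was 15.4% ± 4.40 and the WT mean 56.1% ± 0.0311 (SD, n = 2 each), so the KO cells had 27.4% of the WT level there. In the 115576 windows of the rest, the KO cells had 28.6% of the WT level, with 20.3% and 13.7% in the KO libraries, against 59.4% in each WT library. KO replicate 2 had the lower mean of the KO libraries in both sets, at 66.4% of the level of KO replicate 1 at the distal ends and 67.2% in the rest. The KO pair stood below the WT pair in 3338 distal windows (89.2%), against a background of 89.0% of all autosomal windows. In 52 distal windows (1.39%) the KO pair stood above the WT pair, against 1.27% of all windows.

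The distal windows differed little from the rest in how far WT levels were spread. A WT level below 20% was seen in 1078 distal windows (28.8%), against 25.2% of the rest. A WT level of at least 80% was seen in 1600 distal windows (42.7%), against 47.0% of the rest. The level followed CpG density in every library. Distal windows with 3 to 4 cytosines averaged 24.4% and 16.1% in the KO libraries, against 75.3% and 75.2% in the WT libraries. Distal windows with at least 80 cytosines averaged 0.528% and 0.376% in the KO libraries, against 1.21% and 1.25% in the WT libraries. In the 1600 highly methylated distal windows the KO levels ran, from the 10th to the 90th percentile, over 16.2% to 47.2% in KO replicate 1 and 9.09% to 33.3% in KO replicate 2. Across all distal windows the 2 KO libraries followed each other with Pearson's r = 0.918 over 3743 windows, and with r = 0.812 over the 1600 highly methylated ones. These points share libraries and CpG density, so the values are descriptive.

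The edgeR quasi-likelihood test, adjusted by the Benjamini-Hochberg method over all 119319 windows, called 2748 distal windows lower in KO, with a required fall of 10 points or more and an adjusted p under 0.05. This is 73.4% of the distal windows, against a background of 76.4% of all windows. Among the 2665 distal windows with a WT level of at least 20% the test called 2655 lower (99.6%), against 99.7% of all such windows. The called distal windows had a median level of 19.8% in KO and 84.4% in WT, with a median difference of -58.2 percentage points. Over all called windows this median difference was -57.9 points. A fall of at least 50 points was called in 1928 distal windows (51.5%), against 53.3% of all windows. Of the 995 distal windows not called lower, 985 had a WT level below 20% and 10 a higher one. In 11 distal windows no fit was possible because all calls were of one kind.

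No distal window was called higher in KO by edgeR at 10 points or more, against 0.00251% of all windows. A single distal window of chromosome 15, starting at position 100924001, had a mean of 23.0% in KO and 8.91% in WT without passing the adjusted threshold. It held 22.5% and 23.4% in the KO libraries, against 11.4% and 6.45% in the WT libraries, from 40 to 88 calls per library over 4 cytosines. Among windows at least 10 points higher in KO it was the 1 with an unadjusted edgeR p below 0.05 (p = 0.0495, adjusted p = 0.0587), and limma and Fisher's exact test on pooled counts each called it (adjusted p of 0.0185 by limma and 0.00768 by Fisher's exact test). It was named after its values were seen. With no minimum difference edgeR called 4 distal windows higher, against 0.126% of all windows. Their KO means stayed at or below 1.82% and their rises lay between 0.356 and 1.53 points. The KO pair stood above the WT pair in 3 of the 4.

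The largest fall among distal windows with at least 5 cytosines was at chr15:101228001-101229000. This window had 10.7% and 4.69% in the KO libraries, against 95.2% and 98.6% in the WT libraries, a difference of -89.2 points (edgeR adjusted p = 4.13e-35). The next windows lay on chromosomes 4, 16, 7 and 16, with differences of -87.2, -86.7, -84.0 and -83.3 points, and in each of them both KO libraries were far below both WT libraries. At the other extreme, the chromosome 19 window starting at 59740001 had levels of 66.3% and 73.5% in KO, against 95.8% and 94.7% in WT. The chromosome 8 window starting at 131482001, only 0.25 Mb from the end, had 68.7% and 64.4% in KO, against 96.7% in each WT library. The chromosome 9 window starting at 123054001 had 62.4% and 62.3% in KO, against 97.2% and 95.5% in WT. Such windows were few: both KO libraries stood at 50% or above in 18 distal windows (0.481%), against 922 of the rest (0.798%). Loss to below 10% in both KO libraries from a WT level of at least 80% was seen in 34 distal windows, or 2.13% of the 1600, against 1.87% in the rest.

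**Figure D1:**
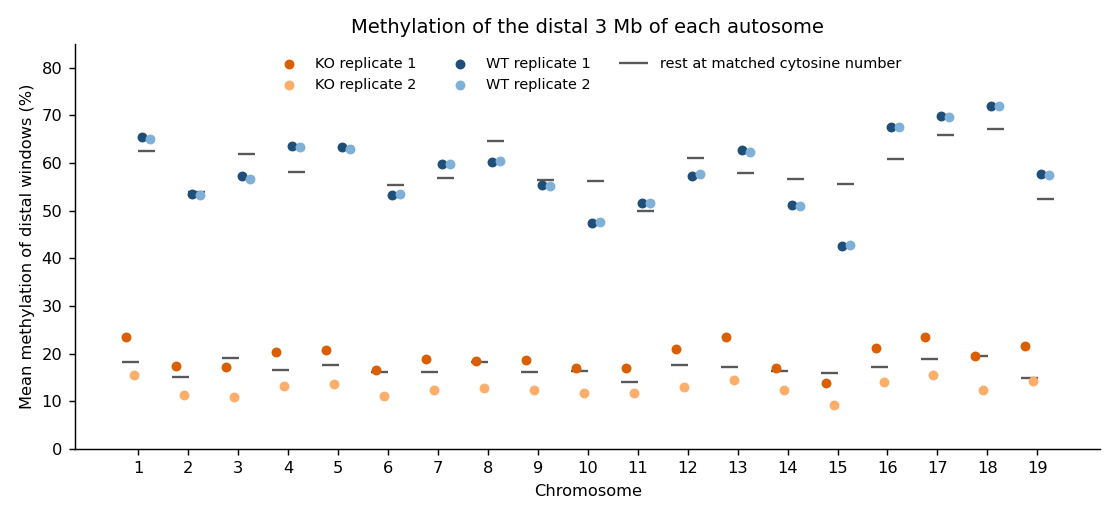
Mean methylation of the distal 1 kb windows of each autosome (y axis, percent) by chromosome (x axis), with 1 point per library and grey dashes for the mean of the 2 KO or 2 WT libraries in the rest of the chromosome at matched cytosine number. The KO points lie far below the WT points on all 19 chromosomes, and the WT points lie both above and below their dashes, from 12.8 points below on chromosome 15 to 6.60 points above on chromosome 16.

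With the number of cytosines matched within each chromosome, the distal windows had slightly less methylation than the rest in WT cells. The distal minus rest difference was -0.706 and -0.746 percentage points in WT replicates 1 and 2, with a mean of -0.726 ± 0.0282 (SD, n = 2), against a matched level of 56.8% in the rest. It was -0.874 and -0.760 points in KO replicates 1 and 2. The chromosomes went both ways, with the distal end below the rest in both WT libraries on 9 chromosomes, above it on 9, and mixed on chromosome 5. The small mean is the balance of much larger differences of opposite sign, and it came to +0.0479 points when the counts of all windows were summed. It was -2.66 points for ends of 1 Mb, -0.025 points for ends of 5 Mb and -0.44 points without chromosomes 8 and 14.

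The chromosomes with the lowest distal WT methylation relative to their rest were 15, at -12.8 points, 10, at -8.58 points, and 14, at -5.59 points. The distal end of chromosome 15 had 13.8% and 9.28% in the KO libraries, against 42.6% and 42.9% in the WT libraries, the lowest WT level of the 19 ends. Chromosomes 16, 4 and 19 had more distal WT methylation than their rest, by 6.60, 5.38 and 5.26 points. The distal end of chromosome 18 had the highest WT level, with 19.5% and 12.3% in the KO libraries, against 72.0% in each WT library, over 35 windows. On every chromosome the 2 WT libraries differed from each other by under 1 point, and the KO pair stood below the WT pair.

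The share of WT methylation kept in KO depended on the WT level, so distal windows were also compared with windows of the same chromosome, cytosine number and WT level. At matched windows the distal ends kept 32.9% and 21.9% of the WT level in KO replicates 1 and 2, against 33.8% and 22.8% in the matched rest. The ratio of distal to matched level was 0.975 and 0.961 in KO replicates 1 and 2, with a mean of 0.968 ± 0.0093 (SD, n = 2), and 2 of the 3743 windows had no match. In log2 terms the distal over rest ratio at matched cytosine number was -0.067 and -0.087 in the KO libraries, against -0.018 and -0.019 in the WT libraries. The difference of -0.058 had an exact two-sided permutation p of 0.333, the smallest p that this test allows with 2 against 2 libraries. The KO pair thus stood below the WT pair by an amount larger than the spread within each genotype.

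**Figure D2:**
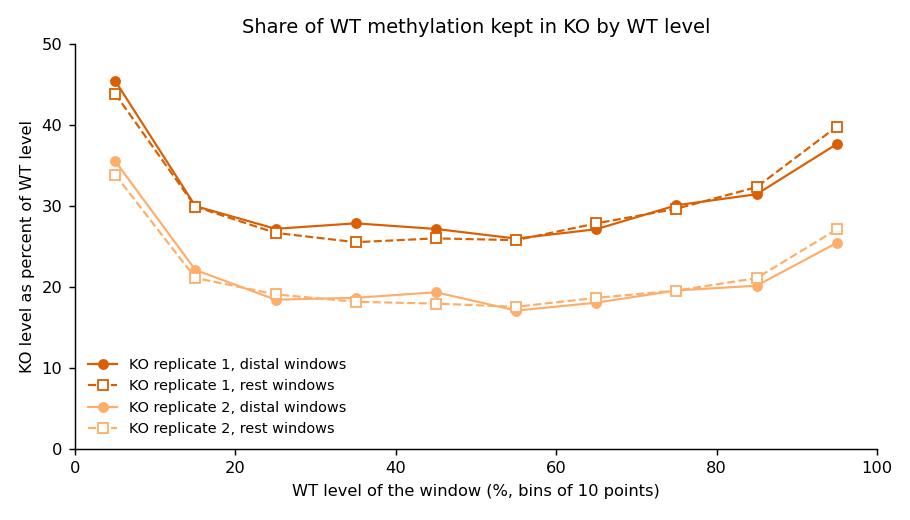
KO level as percent of the WT level (y axis) in windows binned by WT level (x axis, bins of 10 points), for KO replicates 1 and 2, with filled points for distal windows and open squares for the rest. The distal lines run within 2.33 percentage points of the lines for the rest in each bin. They lie higher in the bins from 30% to 50% and lower in those from 80% upwards.

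The direction varied with the WT level. Over the 10 bins of WT level, the distal share was above that of the rest in both KO libraries in 5 bins, below it in 3, which include those from 80% upwards, and split in 2. The largest gap was in the bin from 30% to 40%, where KO replicates 1 and 2 had 27.8% and 18.6% of the WT level at distal ends, against 25.5% and 18.2% in the rest. In the 836 distal windows with a WT level of at least 90%, KO replicate 1 had 37.6% and KO replicate 2 25.4% of the WT level. In the rest these shares were 39.8% and 27.1%. At WT levels from 50% to 60% the shares were 26.0% and 17.1% at distal ends, against 25.8% and 17.5% in the rest. The centromere-side ends gave the opposite direction. Windows within 3 Mb of the lowest listed position, 2644 in number, had ratios of 1.07 and 1.09 to their matched windows in KO replicates 1 and 2, and their KO minus WT difference of the log2 ratio to the rest was 0.127, with the same smallest exact permutation p of 0.333. Both KO libraries stood at 50% or above in 47 of these windows (1.78%).

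**Figure D3:**
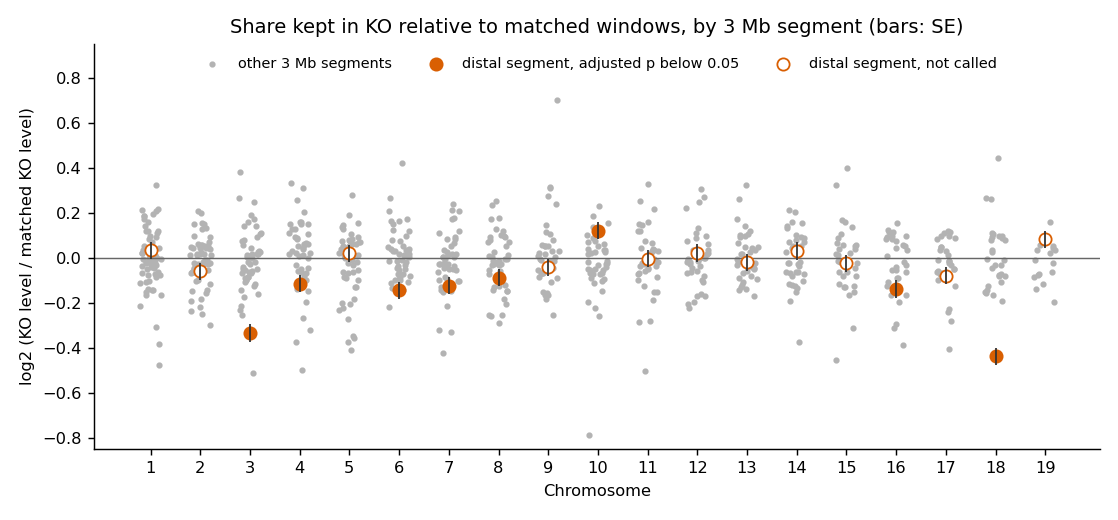
log2 ratio of the KO level to the level of matched windows (y axis) for all 800 tested 3 Mb segments by chromosome (x axis), as the mean of 2 KO libraries, with distal segments as large circles and their SE as bars, filled where called. Distal segments called lower are those of chromosomes 3, 4, 6, 7, 8, 16 and 18, and the distal segment of chromosome 10 is called higher; the distal segments of chromosomes 3 and 18 lie below most grey points.

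To see which single ends departed from their chromosome, every autosome was cut into 3 Mb segments from its distal end, and each segment was compared with matched windows of the rest of its chromosome by limma over the 2 KO libraries. The test called 8 of the 19 distal segments at an adjusted p below 0.05 (42.1%), against a background of 43.6% of 800 segments. It called 7 lower (background 23.4%) and 1 higher (background 20.2%). Distal segments were thus called about as often as any other 3 Mb of the autosomes. The median log2 ratio was -0.04 over distal segments and -0.01 over all. All segments shared 1 estimated SE of 0.0385, which holds only the disagreement of the 2 KO libraries about a ratio, and both libraries used the same WT levels for matching.

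The largest departure was at chromosome 18, whose distal segment had a log2 ratio of -0.44 (limma adjusted p = 4.37e-26). It averaged 19.5% and 12.3% in the KO libraries, against 25.8% and 17.1% expected from matched windows. This was the lowest ratio of the 30 segments of chromosome 18. The distal segment of chromosome 3 had a log2 ratio of -0.34 (limma adjusted p = 5.94e-16), with 17.1% and 10.9% in the KO libraries, against 20.9% and 14.2% expected. It was the second lowest of the 52 segments of chromosome 3. These 2 were the only distal segments below the 5th percentile of all segments, which lay at -0.24. They also held few windows, 35 on chromosome 18 and 47 on chromosome 3, of a median of 151 per chromosome. Both stayed called lower in every alternative that left them 20 windows.

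The other segments called lower had small ratios. They were chromosome 6 at -0.15, chromosome 16 at -0.14, chromosomes 7 and 4 at -0.12 each, and chromosome 8 at -0.09 in log2. None of the 5 kept its call in every alternative. Chromosome 7 turned to 0.060 with at least 10 cytosines per window, without a call. Chromosomes 4 and 16 turned to 0.0095 and 0.030 when matched on cytosine number alone, also without a call. That setting leaves the WT level unmatched, so its ratio compares KO levels and not shares kept. At that matching the distal WT levels were 63.4% and 67.6% on chromosomes 4 and 16, against 58.0% and 60.9% in the rest. Chromosome 6 kept its direction but lost its call with a minimum of 5 calls (limma adjusted p = 0.0819) and for segments of 5 Mb (limma adjusted p = 0.0555). The value of chromosome 8 barely passed (limma adjusted p = 0.0483), and in its last 1 Mb the log2 ratio was 0.35 (limma adjusted p = 2.57e-11). The distal segment of chromosome 10 was called higher, with a log2 ratio of 0.12 (limma adjusted p = 0.00647). It averaged 17.0% and 11.8% in the KO libraries, against 16.0% and 10.6% expected, and in its last 1 Mb it was called lower, with a log2 ratio of -0.13 (limma adjusted p = 0.0248). Matched on cytosine number alone, its ratio of KO levels was -0.18 and called lower (limma adjusted p = 0.00269). This is not a share kept, as its distal WT level was 47.6%, against 56.1% in the rest at that matching. The segment was not called with a minimum of 20 calls (limma adjusted p = 0.0984). With at least 10 cytosines per window it was not called either (limma adjusted p = 0.147). Chromosomes 19 and 1 came next from the top with 0.08 and 0.03, neither of them called. With a minimum of 20 calls per cytosine 3 distal segments were called lower, and with at least 10 cytosines per window 2. Ends left with under 20 windows were not tested, and the share of all segments called is not given for these settings. Both KO libraries were below the matched level on 11 chromosomes, above it on 4 and split on 4.

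**Figure D4:**
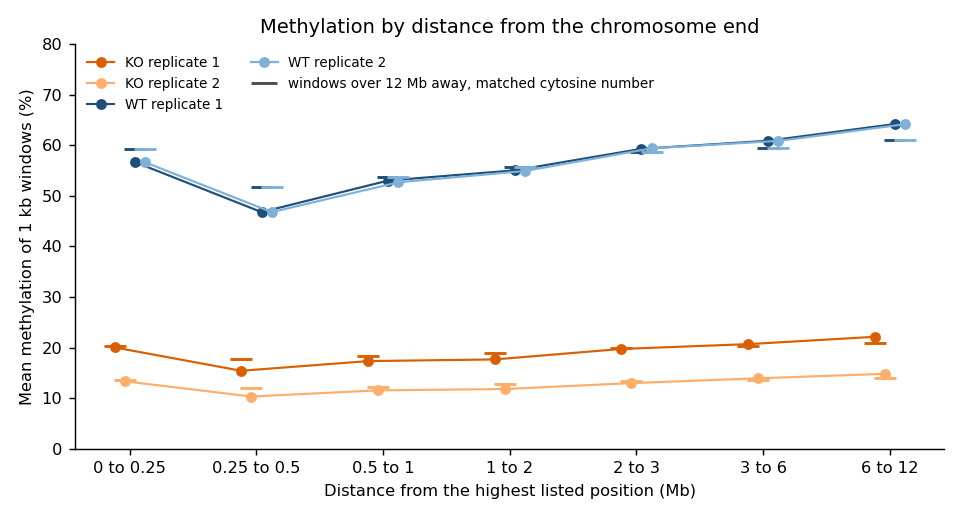
Mean methylation of 1 kb windows (y axis, percent) by distance from the highest listed position (x axis, Mb), for 4 libraries, with dashes for windows over 12 Mb from the end at matched cytosine number. WT levels lie below their dashes in the last 2 Mb, with the largest difference, -4.98 points, between 0.25 and 0.5 Mb, and above them beyond 2 Mb. The KO levels lie below their dashes out to 3 Mb and above them beyond that.

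Within the distal ends, methylation changed with distance. Between 0.25 and 0.5 Mb from the end 245 windows averaged 15.4% and 10.3% in the KO libraries, against 46.8% in each WT library. The WT difference from windows over 12 Mb from the end with the same number of cytosines was -4.98 points. In the last 0.25 Mb, 225 windows averaged 20.0% and 13.3% in the KO libraries, against 56.7% and 56.6% in the WT libraries, with a WT difference of -2.54 points from the far windows. The WT difference was -0.875 points at 0.5 to 1 Mb, -0.652 points at 1 to 2 Mb and +0.688 points at 2 to 3 Mb. It reached +3.13 points at 6 to 12 Mb.

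The share kept in KO had another course. The last 0.25 Mb kept slightly more than far windows matched for WT level, with ratios of 1.037 and 1.025 in KO replicates 1 and 2. The next 0.25 Mb kept less, with ratios of 0.947 and 0.937, and the ratios came back to 0.990 and 0.970 at 2 to 3 Mb. Beyond 3 Mb they lay between 1.004 and 1.010. The member window nearest to the end lay 0.426 kb (chromosome 7) to 102.38 kb (chromosome 9) from the highest position, with a median of 7.479 kb. The KO pair stood below the WT pair in 15 of these 19 nearest windows (78.9%), against the 89.0% of all autosomal windows. The nearest window of chromosome 1 had levels of 65.0% and 50.8% in the KO libraries, against 95.1% in each WT library. The nearest windows of chromosomes 6, 10, 11, 17 and 18 were at or below 0.837% in the KO libraries, against 2.63% or less in the WT libraries.

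The CpG-dense promoters that could be placed at the distal ends were mostly unmethylated in both genotypes. Of 13800 RefSeq promoters with at least 20 bases in CpG sites that were tried, 236 promoters of 209 genes could be placed on distal ends, and 214 of them held at least 3 cytosines with at least 10 calls in all libraries. The promoter table held none of chromosome 18. The MspI site CCGG, which reads the same on both strands, occurred in 232 of the 236. It was present in 52.8% of all promoters in the table, a set that includes those not tried. Placement needed cytosines listed by libraries made with MspI. The high share of CCGG thus follows from the placement and is no result about distal promoters. A WT level below 10% was found in 206 of the 214, between 10% and 50% in 5, and of at least 50% in 3. The median level over the 214 promoters was 0.217% in KO and 0.266% in WT. Placement needed at least 20 listed cytosines, so only CpG-dense promoters could enter this set. Dense windows were low in the rest as well. With 40 to 79 cytosines they averaged 3.09% and 3.07% in the WT libraries, against 4.57% and 4.58% at the distal ends. With 20 to 39 cytosines they averaged 21.8% in each WT library, against 22.8% and 22.9% at the distal ends. Promoters outside the distal ends were not placed, so whether the low promoter level is particular to the ends cannot be told. The KO pair stood below the WT pair in 57 promoters (26.6%) and above them in 26. For all 1 kb windows these shares were 89.0% and 1.27%, as given above, but that background is not matched. Of the 119319 windows, 89112 had a WT level of at least 20%, whereas most of these promoters lay near 0%. At such levels a few calls set the order of the pairs.

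Many genes with known roles were in the unmethylated group. Fgf4, a growth factor made by embryonic stem cells, had 0.352% and 0% in the KO libraries, against 0.476% and 0.105% in the WT libraries, and its 31 marked cytosines are the capitals in the sequence above. A count of 0 among its 883 calls in KO replicate 2 allows a level of up to 0.340% if 3 methylated calls are the limit and calls are independent. Neighbouring cytosines share reads, so the true limit is wider. Fgf3, its neighbour and another growth factor gene, had 0.730% and 0% in the KO libraries, against 0.630% and 0.232% in the WT libraries. Igf2, an imprinted fetal growth factor, had 2.28% and 1.09% in the KO libraries, against 1.18% and 3.06% in the WT libraries. Phlda2, another imprinted gene that limits placental growth, had 0.773% and 0.593% in the KO libraries, against 0.402% and 0.619% in the WT libraries. The KO and WT libraries overlapped in these 4 promoters. Hes5, a Notch target, Brca2, a DNA repair gene, and Nr4a1, a nuclear receptor, were at or below 0.655% in every library. Vax1, a homeobox gene of the forebrain and eye, stood at 1.19% and 0% in the KO libraries, against 6.02% and 8.73% in the WT libraries. Its KO pair was below its WT pair, but the values rest on 7 cytosines with 84 to 133 calls per library. Its 1 kb window, with 99 cytosines, had 0.526% and 0.263% in the KO libraries, against 1.13% and 2.05% in the WT libraries.

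All 8 promoters with a WT level of at least 10% had both KO libraries below both WT libraries, as had 99.8% of all windows with such a WT level, and they kept 8.12% to 32.8% of the WT level. These 8 count the overlapping promoters of Tmem267 and 3110070M22Rik apart, although they share cytosines and a window. The 1 kb window around the promoter was called lower by edgeR for 7 of them, against 97.9% of all windows with a WT level of at least 10%, and for Fndc11 the window fell by 7.78 points, under the 10 points required. Mir1a-1hg, the host gene of the muscle microRNA miR-1a-1, had 16.1% and 8.05% in the KO libraries, against 37.0% and 37.3% in the WT libraries. Topaz1, a gene of male germ cells, had 8.18% and 6.25% in the KO libraries, against 50.5% and 41.5% in the WT libraries. Csf2ra, which encodes the alpha chain of the GM-CSF receptor, lay 30.2 kb from the last position of chromosome 19 and had 1.70% and 0.515% in the KO libraries, against 15.6% and 11.6% in the WT libraries. The long noncoding RNA gene Gm42788 had 8.04% and 8.94% in the KO libraries, against 63.7% and 71.6% in the WT libraries. Zfp660, a zinc finger gene, had 1.18% and 1.45% in the KO libraries, against 12.5% and 17.5% in the WT libraries. The groups did not overlap in any of these.

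The end of chromosome 13 held the promoters nearest to a chromosome end. Tmem267, a gene for a membrane protein, had 2 listed promoters there. The one nearer to the end, 4.96 kb from the highest listed position, had 16.0% and 8.79% in the KO libraries, against 64.1% and 66.2% in the WT libraries. The one at 5.35 kb had 1.3% and 0.791% in the KO libraries, against 3.29% and 0.998% in the WT libraries. The promoter of the noncoding gene 3110070M22Rik overlaps the nearer Tmem267 promoter on the opposite strand and shares its cytosines, so its 16.2% and 8.97% in the KO libraries, against 68.3% and 70.5% in the WT libraries, are not a separate observation.

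Inside the nearer Tmem267 promoter the level changed along the printed sequence. The 15 marked cytosines before base 93, counted from 1 at the 5′ end, averaged 1.39% and 0% in the KO libraries, against 2.87% and 7.04% in the WT libraries. The 53 marked cytosines from base 93 on averaged 13.2% and 7.18% in the KO libraries, against 65.2% and 68.1% in the WT libraries. Within that methylated stretch the CpG at bases 213 and 214 was at or below 2.04% in every library, with 33 to 59 calls per cytosine. At the CpG that starts at base 93 the strands differed: the printed strand had 31.1% and 11.1% in the KO libraries, against 74.5% and 78.6% in the WT libraries, and the opposite strand 0% and 6.25% in the KO libraries, against 11.8% and 0% in the WT libraries. This CpG lies in a CCGG, the site that MspI cuts. Its printed strand had 63 to 106 calls per library, like the cytosines after it. Its opposite strand had 15 to 19, like the cytosines before it. The strands there were thus read from different fragments. The cytosines before base 93 were covered by 15 to 21 calls each and those from it on by 15 to 114. The step from low to high levels was seen in both WT libraries and, at lower levels, in both KO libraries. It coincided with this fragment boundary and change of depth. Whether these bear on the step or on the strand difference was not tested.

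**Figure D5:**
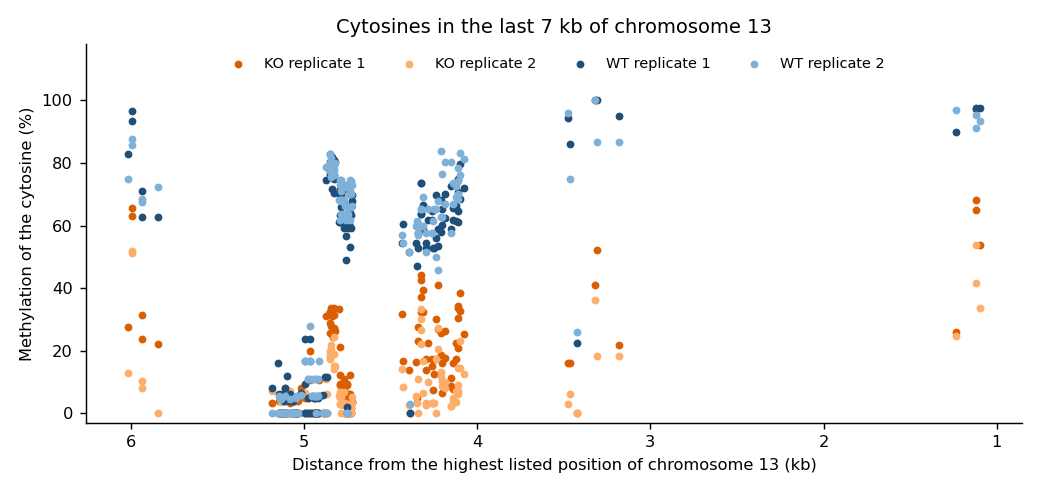
Methylation of each of 165 cytosines (y axis, percent) in the last 7 kb of chromosome 13 by distance from its highest listed position (x axis, kb, the end at the right), with 1 point per library. The WT points lie high and the KO points low along the methylated stretch of the nearer Tmem267 promoter, just right of 5 kb, and the points of all libraries lie low just left of it.

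Read depth at the distal ends was compared as a measure that does not use methylation. The edgeR test on summed calls found 1 of the 19 distal segments changed (5.26%), against a background of 7.64% of 812 segments. It was the end of chromosome 8, with 991 and 986 calls in each 1000000 autosomal calls in the KO libraries, against 1127 and 1116 in the WT libraries, a log2 difference of -0.19 (edgeR adjusted p = 0.0143). Depth was lower along the whole of chromosome 8, where 40 of 43 segments were called and the median log2 difference was -0.22. The other distal segments lay between -0.12 and 0.06 in log2, and none was called. The chromosome 8 call was lost without KO replicate 1 (adjusted p = 0.209) and without KO replicate 2 (adjusted p = 0.232), with the difference between -0.20 and -0.19. With the replicate number as a block it was lost as well (adjusted p = 0.0783). Whether depth bears on the share kept at the end of chromosome 8 was not tested.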

How the data were processed

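The authors deposited 1 table per library in mm9 coordinates, with a methylation percent per CpG cytosine and 2 counts, of calls read as methylated and as unmethylated. The deposited counts are raw, and the percent was checked to follow from them within 0.0001 points. Trim Galore and Bismark 0.10.1 are named, with no role, per the submitters' processing notes. How reads were trimmed and whether duplicates were removed is not given in the sources used here. With no molecular identifiers, PCR duplicates can overstate the precision of a count. Bases filled in at MspI ends can be read as calls.

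A window's level is its methylated over all counts. Windows were tested with edgeR 4.0.16 under R 4.3.3, modelling both kinds of count with library terms, and called at an adjusted p below 0.05 and 10 points. Matching used chromosome, 6 classes of cytosine number (3 to 4, 5 to 9, 10 to 19, 20 to 39, 40 to 79, 80 or more) and WT bins of 10 points. Segments of 3 Mb with at least 20 windows were tested with limma 3.58.1 and their depth, over all listed cytosines, with edgeR and TMM scaling, both adjusted over all segments. Library means were compared by exact permutation (scipy 1.17.1). The tests were tried on simulated data.

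Windows were named by rule: the 5 largest falls and the 5 highest lower KO levels. Only 3 of those high levels are described. Chromosomes named by rule were the 3 highest and 3 lowest by matched share kept, and any with a called segment. Naming chromosomes by their WT difference from the rest was outside the rule. That rule foresaw gene names only with an annotation of mm9, which was not used here. RefSeq promoters (GRCm38.p6) were instead placed where at least 20 listed cytosines fitted their CpG spacing, and the genes named in the unmethylated group were picked after their values were seen. Mirrored patterns, run as a check, gave 0 placements of 13800, and 225 of the 236 placements shared the modal shift of their chromosome. Members and lists were chosen with earlier results of these data known.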

Additional observations from a re-analysis of the deposited data

How the results depend on the processing

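The share of distal windows called lower stayed within 1.5 times of 73.4% under each alternative except at least 10 cytosines per window, where it was 46.5%; it was 70.9% to 74.5% with 1 library left out. The number called higher was 1 by limma, by Fisher's exact test and for ends of 5 Mb, 4 with no minimum difference, and 0 to 1 with 1 library left out (1 without KO replicate 1).

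The WT difference of -0.726 points was -0.665 with a minimum of 5 calls, -0.667 with 20, -0.538 with 10 cytosines per window, -0.44 without chromosomes 8 and 14, -2.66 for ends of 1 Mb, -0.025 for ends of 5 Mb, -1.004 against all autosomes, +0.048 with summed counts, and -0.775 to -0.598 with 1 library left out. The share ratio of 0.968 was 0.979 with 20 calls, 0.985 with 10 cytosines, 0.978 for 5 Mb ends and likewise 0.978 with summed counts. It was 0.967 to 0.976 with 1 library left out. Matched on cytosine number alone, the ratio of KO levels was 0.948. This is not a share kept, as the WT level at that matching was 56.1% at the ends and 56.8% in the rest. The KO minus WT difference of the log2 ratio kept its direction in all alternatives run.

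Distal segments called lower numbered 3 with 20 calls, 2 with 10 cytosines, and 7 to 8 without a WT library; those called higher numbered 0 with 10 cytosines, 2 for segments of 1 Mb, 3 for 5 Mb, 2 against all autosomes, 3 matched on cytosine number alone, and 1 without either WT library. Ends left with under 20 windows in an alternative were not tested. The share of all segments called under these alternatives is not given here, so the counts have no background. Without a KO library 1 library remained and no segment test was made. The log2 ratio changed sign with 10 cytosines on chromosomes 1 (-0.12), 7 (0.060) and 19 (-0.0086), for 1 Mb on chromosomes 8 (0.35), 10 (-0.13) and 19 (-0.29), matched on cytosine number alone on chromosomes 4 (0.0095), 10 (-0.18, called lower) and 16 (0.030), and on chromosome 1 for 5 Mb (-0.014) and without WT replicate 2 (-0.015), while without WT replicate 1 it kept its sign (0.0016). Matching on cytosine number alone leaves the WT level unmatched, so its ratios compare KO levels and not shares kept. The cause of the sign changes was not tested.

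Distal segments called for depth numbered 3 for 1 Mb and 3 for 5 Mb, 2 with shared cytosines only, 6 by DESeq2 and 0 to 4 with 1 library left out. The share of all segments called for depth under these alternatives is not given here, so the counts have no background and are no result about the ends. No pairing by replicate number was seen: deviations of same-numbered libraries correlated at -0.0037 over all windows. The WT libraries correlated at 0.992 in distal windows and in the rest, so their differences may be mostly counting noise. The check therefore cannot exclude that same-numbered libraries shared a culture or preparation. With the replicate number as a block, 73.4% of distal windows were called lower and 0 distal segments were called for depth.

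Among named windows the 10 large falls and high levels kept their calls, and 13 of the alternatives for the 4 small rises lost theirs. The Fndc11 promoter difference was -30.5 points with a minimum of 20 calls, against -11.1 points with 10. Depth limits single promoters with few cytosines, and counting intervals leave out the difference between the KO libraries.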
